A study of Mus musculus with 16 samples.

Results

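Neural epithelium of the mouse embryo was sampled in 3 libraries at E10.5 (E, embryonic day), and 1 of them, set here against the other 2, was the highest of all 16 for the ventral forebrain factors Nkx2-1 and Vax1. It is called the Nkx2-1-high library. It was chosen by its value column, which is headed CNE, while its sample title reads dorsal control neural epithelium. The column headed DCNE belongs to the sample titled central neural epithelium, so headers and titles are crossed between these libraries. The others are called the lateral prominence library and the central-titled library. The 3 libraries are 3 of 16 in the series, which sampled small regions of the forming face and head of CD1 mouse embryos at E8.5 (4 libraries), E9.5 (4) and E10.5 (8). The labels name no treatment or mutation for any of them, each region has 1 library, and the sources used here do not give the number of embryos behind a library. Total RNA was sequenced as 50-base single-end reads, and the labels state a depth of over 40000000 reads without a total per library, so no counting error can be given. Without replicates no spread can be set beside a difference, no test was run, and every call below rests on the size of a fold alone.

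The neural epithelium of the embryonic forebrain is divided into territories by opposing signals. Sonic hedgehog from below favours ventral fates, in which the homeodomain factor Nkx2-1 marks the hypothalamus and the medial ganglionic eminence. Wnt and BMP signals from above favour dorsal fates, in which Pax6 and Emx2 pattern the cortex. FGFs released at the front of the neural tube promote anterior fates and induce their own inhibitors, the Sprouty proteins.

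The deposited value of a gene is a ratio to its own median over the 16 libraries, and it compares libraries for 1 gene, not genes with each other. A level is used below, which is the value divided by the gene's lowest value over the 16 libraries. For 9733 of 15876 genes the lowest value is a floor to which low values had been raised, and a level of 1 then means at or under that floor. For the other genes it means only the lowest library. Folds were taken after removal of the median log2 shift of genes whose lowest value is not shared, 0.09 against the lateral prominence library and 0.19 against the central-titled library. A gene was counted as higher or lower where it was 2-fold or more beyond both other libraries in the same direction, with a level of at least 5 in the Nkx2-1-high library (higher genes) or in the higher of the other 2 (lower genes). The fold given is the smaller of both, written "at least" where the lower library sits at the floor.

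Of the 15876 genes, 1296 reached a level of 5 in 1 or more of the 3 libraries and are called eligible. The Nkx2-1-high library was higher in 344 of these (26.5%) and lower in 111 (8.56%), so 455 (35.1%) were counted and 841 were not. Counts for gene lists below are to be read beside these shares. A gene under a level of 5 in both other libraries is eligible only through the Nkx2-1-high library, which favours a higher call. The shares over all eligible genes hold such genes too. The median over all eligible genes of the nearer log2 ratio, which is 0 where the libraries disagree in sign, was 0.25. Taken in pairs under the same rule, 635 of 1178 eligible genes were 2-fold apart between the Nkx2-1-high and lateral prominence libraries and 626 of 1150 between the Nkx2-1-high and central-titled libraries. The lateral prominence and central-titled libraries were 2-fold apart in 266 of 749. The share of genes listed at a known floor was 58.5% in the Nkx2-1-high library, 65.9% in the lateral prominence library and 66.1% in the central-titled library, against 45.9% to 76.8% in the other 13. Its part in the larger number of higher than lower genes was not tested. The count turned on the threshold: the genes nearest to it were Gm23935 (2.0-fold higher, counted) and Dnajb5 (1.999-fold higher, not counted), and, on the lower side, Gm22744 (at least 1.97-fold lower, not counted).

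The 4 markers given for the Nkx2-1-high library set it apart from both others. Nkx2-1 (ENSMUSG00000001496) had a level of 101 in the Nkx2-1-high library, against 1.98 in the lateral prominence library and 3.91 in the central-titled library, a fold of 22.7. Vax1 (ENSMUSG00000006270), a homeodomain factor of the ventral anterior forebrain and optic stalk, had a level of 12.4 against 1.46 and 1, a fold of 7.98. Slit2 (ENSMUSG00000031558), a secreted guidance protein read by Robo receptors, had a level of 30.5 against 1.17 and 4.43, a fold of 6.04. Zic4 (ENSMUSG00000036972), a zinc finger factor, had a level of 19.7 against 1 and 3.03, a fold of 5.72. All 4 had their highest level of the 16 libraries here. The title's word dorsal goes against the ventral factors Nkx2-1 and Vax1, and Slit2 and Zic4 are not used for this point. In bulk tissue a lower level can come from fewer cells that express a gene or from less RNA per cell, which cannot be told apart here.

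The progenitor genes Sox2 and Nes were well above their lowest values in all 3 libraries. The level of Sox2, a factor of neural progenitors, was 21.6 in the Nkx2-1-high library, 17.8 in the lateral prominence library and 10.2 in the central-titled library. The level of Nes, the progenitor intermediate filament nestin, was 24.4, 14.9 and 19.2 in the same order. The related factors Sox1 and Sox3 were low: Sox1 had a level of 1.89 in the Nkx2-1-high library, against 1.32 and 1, and Sox3 was at the floor in the Nkx2-1-high and central-titled libraries and had a level of 5.81 in the lateral prominence library. Markers of other tissues were low. All 14 endothelial genes measured were at their lowest in the Nkx2-1-high library (summed level 14.0, against 18.5 in the lateral prominence and 16.9 in the central-titled library). Of 15 surface epithelium genes 11 were at their lowest (summed level 19.5, against 15.6 and 16.1), with Epcam at a level of 3.54 and Krt8 and Krt18 at 1. Of 26 facial mesenchyme genes 21 were at their lowest, Prrx1, Twist1, Alx1 and Pdgfra among them. Their summed level of 58.7, against 32.1 and 29.4, held 28.4 from Sox9, which neural progenitors also use, and reached 1058 in the E9.5 cranial mesenchyme library. The 13 erythroid genes summed to a level of 117 in the Nkx2-1-high library, 77.9 in the lateral prominence library and 80.3 in the central-titled library, against up to 4363 elsewhere in the series. Hba-x, an embryonic globin whose lowest ratio is the stop at 0.01, gave 78.5 of the 117, against 35.9 and 34.2, and was counted as higher (2.02-fold). The other 12 erythroid genes summed to 39.0 in the Nkx2-1-high library, 41.9 in the lateral prominence library and 46.0 in the central-titled library. The Y-linked Eif2s3y was listed at the floor in the Nkx2-1-high and lateral prominence libraries and had a level of 6.55 in the central-titled library. The level of Xist, transcribed from the inactive X chromosome, was 83.4 in the Nkx2-1-high library, 50.6 in the lateral prominence library and 30.1 in the central-titled library. The part of sex, of blood and of the small epithelial level in the results below was not tested.

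The bases upstream of the start site are shown for 3 of the 4 markers to let their promoters be compared, from RefSeq on GRCm38.p6, as 250 bases that end just before the start, 5′ to 3′ on the gene's strand. Capitals mark any match, on either strand, to 3 short motifs: TGGGTGGTC (Gli factors), CAAGTG (the core bound by Nkx2-1 and its relatives) and TAATTA (homeodomain factors). No pair of these motifs overlapped in what is shown.
Nkx2-1 (chr12:56536909-56537158, minus strand): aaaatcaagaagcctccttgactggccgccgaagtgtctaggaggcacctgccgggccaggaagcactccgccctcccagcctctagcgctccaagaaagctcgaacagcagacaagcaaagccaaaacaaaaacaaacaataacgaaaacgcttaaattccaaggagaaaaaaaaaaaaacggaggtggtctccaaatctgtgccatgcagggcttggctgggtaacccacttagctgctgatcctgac
Vax1 (chr19:59170398-59170647, minus strand): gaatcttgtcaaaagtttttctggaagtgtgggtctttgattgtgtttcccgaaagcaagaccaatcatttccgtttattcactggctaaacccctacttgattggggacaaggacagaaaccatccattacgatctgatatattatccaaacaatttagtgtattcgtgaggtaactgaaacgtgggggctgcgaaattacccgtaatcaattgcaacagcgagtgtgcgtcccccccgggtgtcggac
Zic4 (chr9:91368722-91368971, plus strand): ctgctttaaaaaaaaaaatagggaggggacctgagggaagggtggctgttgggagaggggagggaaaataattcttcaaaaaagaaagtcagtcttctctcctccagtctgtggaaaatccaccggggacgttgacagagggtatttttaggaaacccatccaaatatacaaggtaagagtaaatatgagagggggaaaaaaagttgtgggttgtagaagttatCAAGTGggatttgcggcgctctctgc
Zic4 held 1 match to CAAGTG, and the other 2 held none of the 3 motifs. Over windows from 250 bases before to 50 after the start, 209 of the 344 higher genes and 66 of the 111 lower genes had a promoter in the table. CAAGTG occurred in 10.4% of the 288 promoters of higher genes, in 1.14% of the 88 promoters of lower genes, and in 10.8% of the 1123 promoters of eligible genes and 13.6% of all 32851. TAATTA occurred in 3.82%, 4.55%, 2.49% and 5.29% of the same sets. TGGGTGGTC occurred in 0.347% of the promoters of higher genes and in none of the lower genes, beside 0.356% of eligible and 0.253% of all promoters. A match is a description of these letters and not a binding site.

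Among ventral forebrain genes, 14 of the 28 measured were eligible. Of these 5 were higher and 0 lower, beside 26.5% and 8.56% over all eligible genes. The 5 include Nkx2-1 and Vax1, which came with the choice of this library, so the count is no separate evidence of a ventral excess. Nkx2-1, Vax1 and Isl1 were also eligible only through the Nkx2-1-high library. Besides Nkx2-1 and Vax1, which are among the markers given, the higher genes were Six3, Olig2 and Isl1. Six3, which keeps the anterior neural plate from adopting posterior fates, had a level of 66.1 in the Nkx2-1-high library, against 15.3 in the lateral prominence and 6.56 in the central-titled library, a fold of 4.07. Six3os1, a non-coding gene antisense to Six3, had a level of 124 against 9.71 and 13.3. Whether the counting used strand is not given in the sources used here, so reads of this pair may not be separable. Olig2, a bHLH factor of ventral progenitors, had a level of 26.2 against 6.11 and 7.53 (3.05-fold), and Isl1, a LIM homeodomain factor of ventral neurons, 6.98 against 1.30 and 1 (5.06-fold).

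Several other forebrain genes were not counted. Dlx1, a homeodomain factor of ganglionic eminence progenitors, had a level of 8.36 in the Nkx2-1-high library, against 8.07 in the lateral prominence and 1.91 in the central-titled library. For Dlx1 the Nkx2-1-high and lateral prominence libraries lay within 2-fold, and the central-titled library was lowest. The hypothalamic and eye-field genes Rax, Six6, Hesx1 and Nkx2-4 were at the lowest level in all 3 libraries, as were Lhx6 and Nkx6-2. Fezf2, a zinc finger factor of the forebrain, had a level of 4.67 in the Nkx2-1-high library, between 3.34 in the lateral prominence and 27.1 in the central-titled library.

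Both eligible members of the Zic family were higher. Zic1, the neighbour of Zic4 on chromosome 9, had a level of 61.3 in the Nkx2-1-high library, against 3.65 in the lateral prominence and 14.3 in the central-titled library (3.76-fold). Zic2 and Zic5 stayed under a level of 5 in all 3 libraries and were not eligible. Zic2 had a level of 4.42 in the Nkx2-1-high library, against 1 in the lateral prominence and 2.75 in the central-titled library, and Zic5 had 3.90 against 1 and 1.67. For Zic1, Zic2, Zic4 and Zic5 the lateral prominence library was the lowest of the 3 each time.

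Among the lower genes, Pax6 and Emx2, the factors that pattern the cortex from opposite sides, were listed at the floor in the Nkx2-1-high library. Pax6 had a level of 1, against 43.8 in the lateral prominence and 66.6 in the central-titled library, at least 46.5-fold lower. Emx2 had a level of 1 against 11.1 and 14.4, at least 11.8-fold lower. In the dorsal forebrain list 13 of 25 measured genes were eligible, of which 0 were higher and 5 lower. The other 3 were Gli3, Nr2e1 and Dmrta1. Nr2e1, an orphan nuclear receptor of forebrain progenitors, had a level of 8.02 against 56.4 and 28.5 (4.05-fold lower), and Dmrta1, a doublesex-related factor, 1.30 against 3.21 and 6.08 (2.62-fold lower).

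Several other dorsal genes differed between the lateral prominence and central-titled libraries. Wnt8b, a Wnt ligand of the dorsal midline, was listed at the floor in the Nkx2-1-high and lateral prominence libraries and had a level of 11.1 in the central-titled library. Rspo3, a secreted enhancer of Wnt signalling, was at the floor in the same 2 and had a level of 27.3 in the central-titled library. Rspo2, Neurog2 and Dmrt3 followed the same pattern, with levels of 5.46, 6.36 and 7.52 in the central-titled library. These 5 genes were not counted, since the Nkx2-1-high and lateral prominence libraries were both at the floor. Rspo1 differed again, with a level of 21.4 in the Nkx2-1-high library, 1 in the lateral prominence library and 60.2 in the central-titled library.

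**Figure D1:**
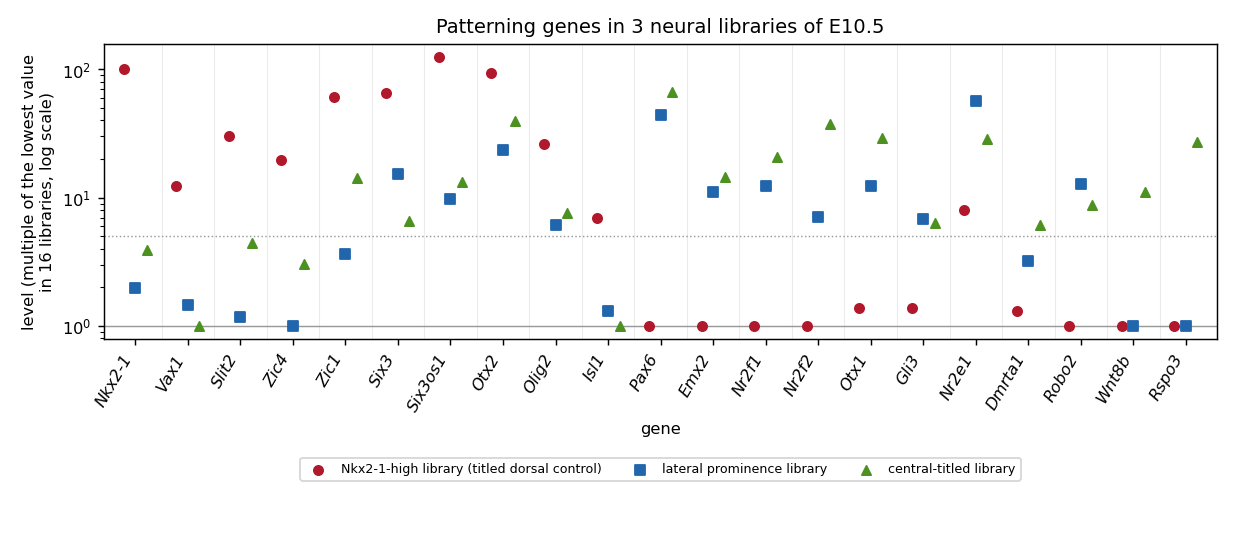
Levels (multiples of each gene's lowest value over 16 libraries, log axis) of 21 patterning genes in the Nkx2-1-high library (red circles), the lateral prominence library (blue squares) and the central-titled library (green triangles), 1 library each. The solid line is a level of 1 and the dotted line a level of 5. Red circles lie on top from Nkx2-1 to Isl1 and at or near 1 for Pax6, Emx2, Nr2f1, Nr2f2, Otx1, Gli3, Dmrta1 and Robo2, while Wnt8b and Rspo3 are above 1 only in the central-titled library.

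Both eligible genes of the retinoid list were lower, and they encode its COUP-TF nuclear receptors. Nr2f1, which sets area identity in the cortex, was listed at the floor in the Nkx2-1-high library, against levels of 12.4 in the lateral prominence and 20.7 in the central-titled library, at least 13.1-fold lower. Nr2f2, its close relative, was at the floor against 7.06 and 37.5, at least 7.5-fold lower. Of the midbrain, hindbrain and diencephalon list 5 of 27 measured genes were eligible, with 3 higher and 1 lower. The Otx pair stood in opposite directions. Otx2, a homeodomain factor of forebrain and midbrain, had a level of 93.5 against 23.6 and 39.8 (2.07-fold higher), and Otx1 had 1.37 against 12.3 and 29.0 (9.53-fold lower). The third higher gene beside Otx2 and Six3os1 was Tal2, a bHLH factor of midbrain GABAergic neurons, with a level of 19.8 against 1 and 2.12 (8.23-fold).

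Hedgehog genes gave a mixed picture, with 6 of 23 entries eligible, 1 higher and 2 lower. Shh, the ligand, had its highest level of the series in the Nkx2-1-high library, 12.4, against 1 in the lateral prominence library and 7.04 in the central-titled library. It was not counted, because the fold over the central-titled library was 1.55. Ptch1, the receptor, which is also a transcriptional target of the pathway, had a level of 27.4 against 5.85 and 11.9 (2.02-fold higher). The transcription factors were lower: Gli3, the main repressor, had a level of 1.37 against 6.85 and 6.37 (5.28-fold), and Gli2, the main activator, 4.70 against 13.4 and 10.8 (2.61-fold). Gli1, another target, was listed at the floor in the Nkx2-1-high and lateral prominence libraries and had a level of 3.29 in the central-titled library. Gas1 and Boc, coreceptors, were at a level of 1 in the Nkx2-1-high library, against 4.22 and 2.97 in the lateral prominence library and 4.87 and 1.46 in the central-titled library, too low to be eligible.

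The FGF list had the largest share of higher genes among lists with more than 2 eligible genes: 7 of 8 eligible genes were higher and 1 lower, of 27 entries measured. The median nearer log2 ratio of the eligible 8 was 2.21, beside 0.25 over all eligible genes. Among ligands, Fgf18 had a level of 13.8 in the Nkx2-1-high library and was listed at the floor in both others, at least 12.1-fold higher. Fgf15 had a level of 9.999 against 2.36 in the lateral prominence and 3.19 in the central-titled library (2.76-fold). Among inhibitors that FGF signalling induces, Spry1 had a level of 11.5 with both others at the floor (at least 10.1-fold), and Spry2 9.57 against 1.24 and 1 (7.28-fold). Il17rd, an inhibitor at the receptor, had a level of 8.79 against 1.10 and 1 (7.55-fold), and Spred3, a Sprouty relative, 9.90 against 3.19 and 1.45 (2.92-fold). Etv1, an ETS factor, had a level of 6.58 against 2.51 and 1.66 (2.47-fold).

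The lower FGF gene was a receptor. Fgfr2 had its lowest level of the series in the Nkx2-1-high library, against 11.1 in the lateral prominence and 5.98 in the central-titled library, 6.8-fold lower. Fgfr1 had a level of 3.76 against 2.27 and 2.59, and Fgfr3 2.45 against 2.29 and 3.18. Below the level of 5, Fgf17, Dusp6 and Etv5 were above the floor only in the Nkx2-1-high library of the 3, with levels of 4.93, 4.35 and 4.14. Fgf8, the ligand of the anterior neural ridge, had a level of 1.24 with both others at the floor, and Spry4, Etv4 and Sp8 were at the floor in all 3. Flrt3 stands on 2 entries with different values, and neither was eligible.

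**Figure D2:**
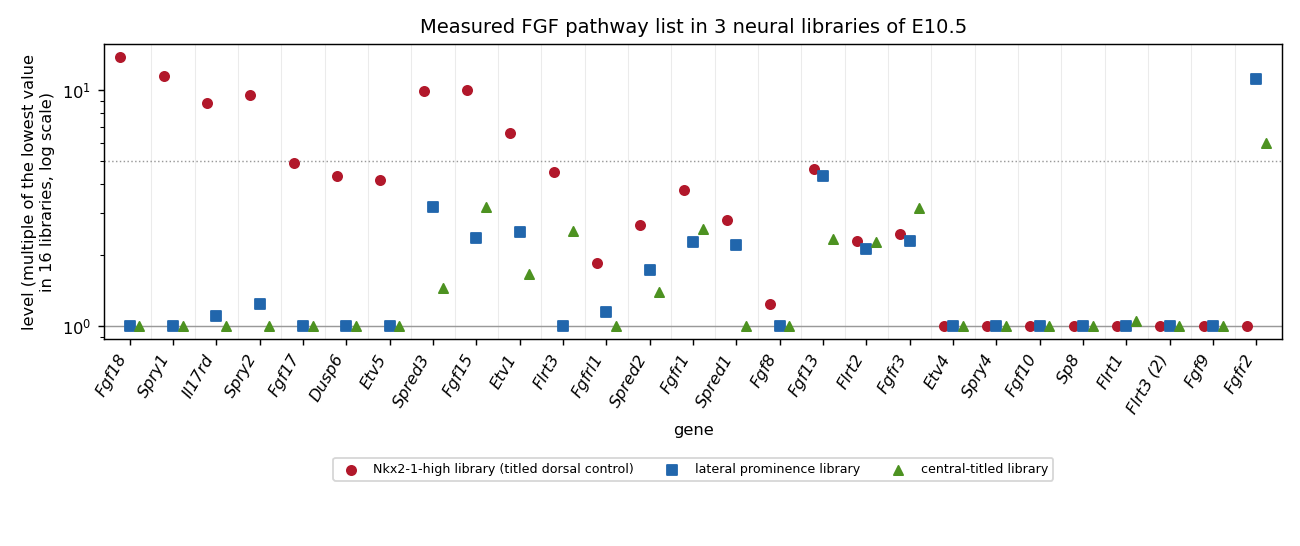
Levels (log axis) of the 27 measured entries of the FGF list, ordered from the most higher to the most lower, in the Nkx2-1-high library (red circles), the lateral prominence library (blue squares) and the central-titled library (green triangles). Fgf18, Spry1, Fgf17, Dusp6 and Etv5 have both other libraries on the solid line (a level of 1), and Fgfr2 at the right end has the opposite order.

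In the Notch and proneural list 10 of 31 genes were eligible, 4 higher and 1 lower. Hes5, a transcriptional repressor induced by Notch, had a level of 15.1 in the Nkx2-1-high library, against 2.02 in the lateral prominence and 1.85 in the central-titled library (7.05-fold higher). Hes1, its relative, had a level of 13.4 against 3.59 and 3.75 (3.15-fold), Mfng, a glycosyltransferase that modifies Notch, 10.2 against 2.06 and 2.74 (3.26-fold), and the receptor Notch1 29.3 against 12.4 and 12.1 (2.13-fold). Among ligands, Dll1 had a level of 14.5 against 7.57 and 5.33, under 2-fold over the lateral prominence library. Jag1 was the lower gene, listed at the floor against 2.75 and 7.98, at least 2.92-fold.

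The progenitor list had 19 of 22 genes eligible. Of these 6 were higher and 4 lower, beside 26.5% and 8.56% over all eligible genes. Beyond Hes1, Hes5 and Notch1, which the Notch and proneural list shares, the higher ones were Sox9, Slc1a3 and Ptn, genes of radial glia. Sox9 had a level of 28.4 in the Nkx2-1-high library, against 6.70 in the lateral prominence and 3.59 in the central-titled library (4.0-fold), and Slc1a3, a glutamate transporter, 14.9 against 3.15 and 3.83 (3.42-fold). Ptn, a secreted growth factor, had a level of 12.1 against 2.55 and 3.04 (3.50-fold). The lower ones beside Pax6 were Id4, Ptprz1 and Lix1. Id4, an inhibitor of bHLH factors, had a level of 1.81 against 26.7 and 8.16 (5.13-fold lower), Ptprz1, a receptor phosphatase, 5.94 against 32.7 and 20.7 (3.96-fold lower), and Lix1 1.01 against 5.56 and 2.92 (3.29-fold lower). Ptprz1 and Ptn, which is a ligand of Ptprz1, therefore stood in opposite directions. Of 39 neuronal entries 15 were eligible and 2 higher, Isl1 and the adhesion molecule Nrcam (9.20 against 3.19 and 2.26, 2.72-fold), and of 2 eligible proliferation genes none was counted.

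Of 5 eligible genes in the Slit, Robo and netrin list 1 was higher, Slit2, and 1 lower, Robo2. Robo2, a receptor of Slit2, was listed at the floor in the Nkx2-1-high library, with levels of 12.7 in the lateral prominence and 8.69 in the central-titled library, at least 9.89-fold lower. In the semaphorin and Eph list 4 of 11 eligible genes were higher and 4 lower. The higher Eph genes were receptors of the B class: Ephb3 had a level of 9.22 against 1.25 and 1.07 (6.94-fold) and Ephb1 6.63 against 2.23 and 1 (2.80-fold). The ephrin-B ligands were lower: Efnb1 was at the floor against 11.5 and 5.09 (at least 5.79-fold) and Efnb2 had a level of 1.20 against 10.1 and 3.20 (3.05-fold). Another receptor of the class, Ephb2, was not higher, with a level of 9.44 against 9.16 and 19.6. Epha3, an A-class receptor, was at the floor against 13.8 and 7.96, at least 9.06-fold lower. Of the semaphorins, Sema4a had a level of 6.24 with both others at the floor (at least 5.48-fold higher), and Sema5b 11.2 against 36.6 and 49.6 (3.46-fold lower). Plxnb1, a plexin that binds class 4 semaphorins, had a level of 9.94 against 2.95 and 2.77 (3.16-fold higher).

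Adhesion and matrix genes differed too. In the cadherin list 1 of 8 eligible genes was higher, Cdh7 (11.0 against 3.46 and 2.12, 3.0-fold), and 3 were lower, Pcdh19 (1.17 against 22.3 and 4.32, 4.2-fold), Fat4 (3.39 against 13.5 and 7.94, 2.66-fold) and Cdh4 (2.04 against 4.92 and 7.22, 2.56-fold). Cdh2, N-cadherin, had levels of 9.78 in the Nkx2-1-high, 10.9 in the lateral prominence and 8.85 in the central-titled library. In the matrix list 6 of 10 eligible genes were higher and none lower, and the median nearer log2 ratio of the 10 was 1.56. Of the higher genes, Hspg2, Col2a1, Fbn2 and Ptn, which the progenitor list shares, were under a level of 5 in both other libraries. These were eligible only through the Nkx2-1-high library, which favours higher calls. The higher genes included the basement membrane proteoglycans Hspg2 (9.02 against 1 and 1.43, 5.54-fold) and Agrn (20.1 against 4.48 and 5.33, 3.32-fold). Sparc, a matricellular protein, had a level of 71.8 against 14.7 and 19 (3.33-fold), and Col2a1, a fibrillar collagen, 12.2 against 3.54 and 4.07 (2.62-fold). Fbn2, a fibrillin, had a level of 5.80 with both others at the floor, at least 5.10-fold higher.

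Wnt and BMP genes were mostly not counted. Of 13 eligible Wnt genes 1 was higher, the receptor Fzd5 (6.75 with both others at the floor, at least 5.93-fold), and 1 lower, the secreted antagonist Sfrp2 (1 against 3.04 and 7.80, 3.23-fold). Tcf7l1, a repressor of Wnt targets, had its highest level of the series in the Nkx2-1-high library, 85.9 against 55.4 and 29.7, within 2-fold of the lateral prominence library. Of 4 eligible BMP and TGF-beta genes none was higher and 2 were lower, Id4 and the activin receptor Acvr2a (1 against 15.7 and 19.5, at least 16.7-fold). Acvr2a was at the floor in the Nkx2-1-high library alone of the series, and a failed estimate cannot be told from a low value there.

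**Figure D3:**
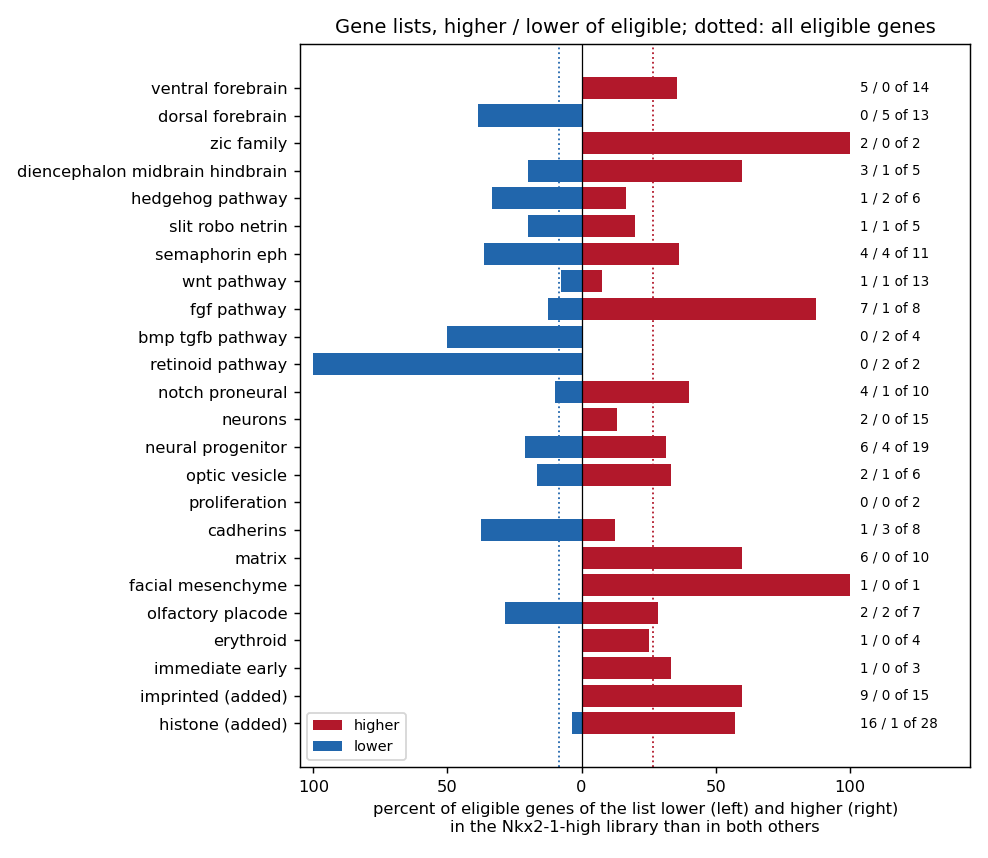
Percent of the eligible genes of each list that were higher (red, right) or lower (blue, left) in the Nkx2-1-high library than in both others, with counts of higher and lower genes and of eligible genes at the right. Dotted lines give the shares over all 1296 eligible genes, 26.5% higher and 8.56% lower. The lists marked as added were picked after their values were seen. Bars of 1 or 2 genes reach 100%, and the FGF list has 7 of 8 higher, all 7 eligible only through the Nkx2-1-high library.

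Outside the lists, the largest folds among named higher genes were those of Mir1906-2 (level 31.4 against 1.80 and 1, 16.4-fold), Gpr50, Mbip and Slc11a2. Gpr50, an orphan receptor related to melatonin receptors, had a level of 22.3 in the Nkx2-1-high library, against 1 in the lateral prominence and 1.38 in the central-titled library (14.3-fold). Slc11a2, a transporter of iron and other divalent metals, had a level of 30.9 against 1.41 and 2.16 (12.6-fold). Mxra7 had a level of 13.4 against 1.03 and 1.48 (7.99-fold). The entry AC118640.1, which has a clone name only, had a level of 46.8 against 1.85 and 1.66 (23.8-fold), above that of Nkx2-1.

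Mbip, which encodes an inhibitor of a MAP kinase kinase kinase, is the gene next to Nkx2-1 on chromosome 12. Its level was 23.5 in the Nkx2-1-high library, against 1.39 in the lateral prominence and 1.61 in the central-titled library (12.8-fold). The genes beyond the pair did not share this. Nkx2-9, on the other side of Nkx2-1, had a level of 4.01 against 1 and 3.26, Pax9 was at the floor in all 3, and Brms1l, beyond Mbip, had 2.34 against 2.94 and 1.25. Reads running from one gene into the next were not examined here.

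Among microRNA genes, 11 of 29 eligible were higher (37.9%) and 2 lower (6.90%), beside 26.5% and 8.56% over all eligible genes. The values are those of the hairpin genes and not of mature strands. For 4 of the higher hairpins 1 mature strand each is shown, because 3 come from the imprinted cluster between Dlk1 and Dio3 and 1 from within Slit2. The other mature strand of each hairpin is left out, and the values do not tell the strands apart. The sequences are from RefSeq on GRCm38.p6, 5′ to 3′, with the seed (bases 2 to 8) in capitals.
mmu-miR-218-5p (Mir218-1, chr5:48223966-48223986, plus strand): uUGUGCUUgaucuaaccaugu
mmu-miR-377-3p (Mir377, chr12:109740553-109740574, plus strand): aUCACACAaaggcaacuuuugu
mmu-miR-134-5p (Mir134, chr12:109734145-109734166, plus strand): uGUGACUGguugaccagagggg
mmu-miR-544-3p (Mir544, chr12:109729371-109729392, plus strand): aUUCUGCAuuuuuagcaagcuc
No 2 of these seeds are the same. Mir218-1 lies inside Slit2 on chromosome 5, and its level was 9.10 in the Nkx2-1-high library with both others at the floor, at least 8.0-fold higher. Its reads cannot be told apart from those of its host transcript. On chromosome 12, Mir377 had a level of 13.9 with both others at the floor (at least 12.2-fold), Mir134 5.38 with both at the floor (at least 4.73-fold) and Mir544 20.7 against 2.01 and 3.41 (5.35-fold). Dlk1, the imprinted non-canonical Notch ligand of the same cluster, had a level of 70.9 against 6.42 and 6.84 (9.12-fold), and Rtl1, beside it, 7.74 against 2.57 and 2.04 (2.83-fold). Of 43 measured entries that RefSeq places from Dlk1 to Dio3, 14 were eligible, 8 higher and 0 lower, beside 26.5% and 8.56% over all eligible genes. Some of them, such as Mir377 and Mir134, were eligible only through the Nkx2-1-high library, which favours higher calls. Among the eligible entries of the cluster not counted, Mir379 had a level of 2.67 in the Nkx2-1-high library, against 5.10 in the lateral prominence and 1 in the central-titled library. Mir665 had 9.79 against 1 and 8.16. The long non-coding Meg3 had a level of 18.0 against 10.8 and 7.16, also not counted.

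Some of the lower genes are used by every cell and were listed at the floor in the Nkx2-1-high library alone of the 16. Cnot3, a subunit of the CCR4-NOT deadenylase, was at the floor against levels of 27.8 in the lateral prominence and 20.0 in the central-titled library, and the lowest level in the other 15 libraries was 13. Orc4, a subunit of the origin recognition complex, was at the floor against 18.1 and 14.1, with no other library under 12.1. Mbd5 (1 against 14.2 and 11.9), Rnf214 (1 against 10.4 and 8.28) and Acvr2a were likewise alone at the floor, with no other library under 5.87, 6.77 and 3.93. A value at the floor can be a failed estimate as well as a low one, and the files do not tell these apart. Across the series 0 to 22 genes per other library were alone at their lowest value with every other library at 3 times it or more, and 7 in the Nkx2-1-high library. Leaving out all such genes gave 340 higher and 103 lower. Of the 111 lower genes, 35 were at a known floor in the Nkx2-1-high library, Pax6, Emx2, Nr2f1, Nr2f2, Robo2 and Epha3 among them. Pax6 and Emx2 were at or near the floor in other libraries as well. The other libraries had such values as well. Ttc3 was at the floor in the lateral prominence library alone of the 3 (141 against 1 and 110) and Tpr at its lowest in the central-titled library (179 against 256 and 1), and neither was counted.

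**Figure D4:**
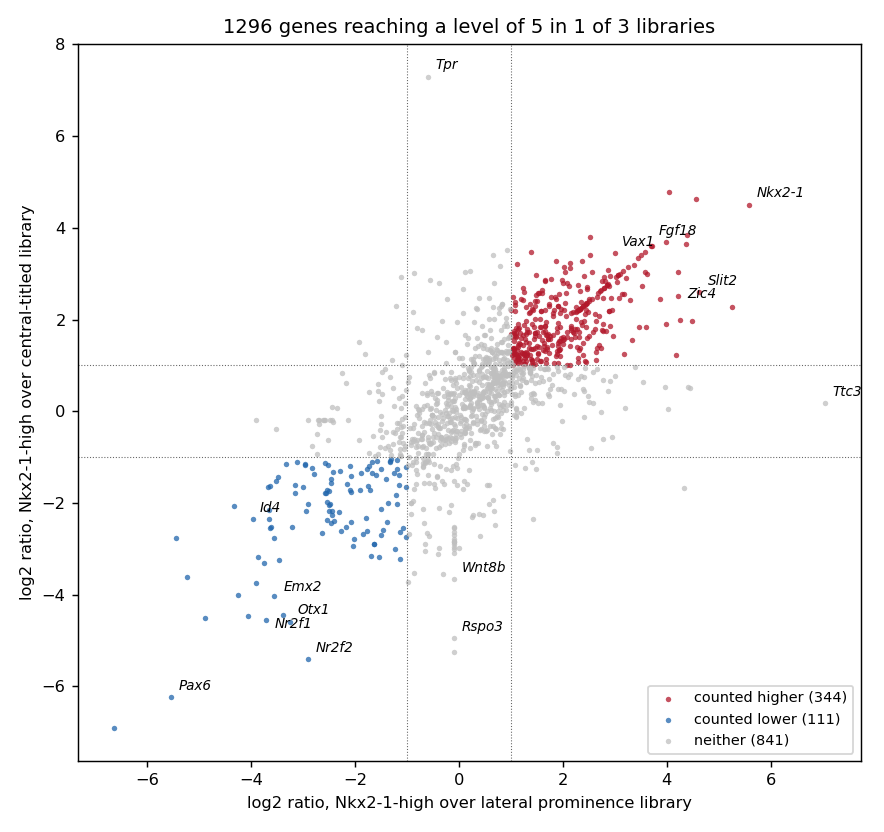
Log2 ratios, after removal of the shift, of the Nkx2-1-high library over the lateral prominence library (x axis) and over the central-titled library (y axis) for the 1296 eligible genes, coloured by call. Dotted lines are 2-fold. Nkx2-1 and Pax6 lie near opposite corners, Wnt8b and Rspo3 are lower only against the central-titled library, and Ttc3 and Tpr lie far out along 1 axis each.

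Across the whole series, 140 of the 344 higher genes (40.7%) had their highest level of the 16 libraries in the Nkx2-1-high library, a number that the rule for higher genes favours. Over all 1296 eligible genes it was 279 (21.5%). A further 63 higher genes had their highest level in the E10.5 library labelled medial nasal prominence, whose neural genes go against its label: its level of Nkx2-1 was 49.9 and of Nes 43.2. Of the higher genes 133 (38.7%) had 1 of their 2 highest levels in that library, beside 406 of the eligible genes (31.3%). Its levels of the other markers were 3.75 for Vax1, 7.26 for Slit2 and 4.36 for Zic4. For Olig2, Hes5 and Notch1 it was above the Nkx2-1-high library, with levels of 28.3, 27.9 and 49.8. For Fgf18 it was at the floor, and for Spry2 at 2.61, so these genes did not follow Nkx2-1 there. Fgf18 and Spry2 were highest in the E8.5 caudal brain neural epithelium library (16.1 and 16). Pax6 was also low in the library labelled medial nasal prominence, at a level of 1.51, and Nr2f1 stood at 8.21.

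**Figure D5:**
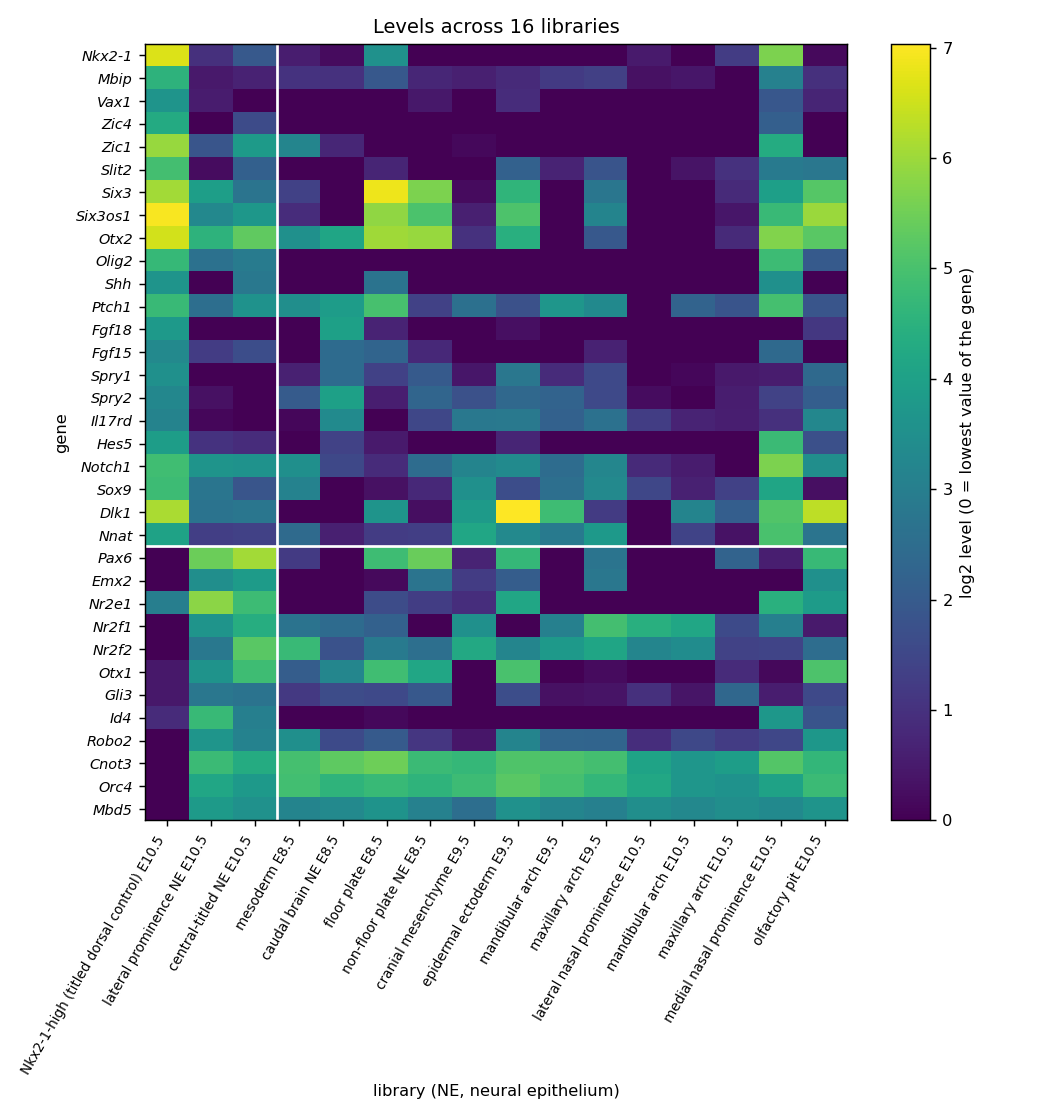
Log2 level (colour, 0 is a gene's lowest value) of 34 named genes (rows) in the 16 libraries (columns), the Nkx2-1-high library first and then the lateral prominence and central-titled libraries, left of the vertical white line. Genes above the horizontal white line were higher in the Nkx2-1-high library than in both others or, for Shh, than in the lateral prominence library alone, and genes below it were lower. Nkx2-1, Vax1, Zic4 and Slit2 are bright in the first column, weaker in the library labelled medial nasal prominence, and Cnot3, Orc4 and Mbd5 are dark in the first column alone.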

How the data were processed

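Per the submitters' processing notes the authors used Bowtie, TopHat, TopHat2 and Cufflinks with mouse build mm9. Versions, annotation and strand setting: not given in the sources used here. Deposited values are a ratio per gene: each of 15876 genes has a median of 1 over 16 libraries. The unit before that division is not stated, though thresholds had been set for FPKM, which Cufflinks writes. Levels came out whole at 6 significant digits (tolerance 0.1 in the last digit) in 5744 of 5768 testable genes with a shared lowest value (99.6%), so their floor was 1 in the original unit. Ratios stop at 0.01 in 6 genes, Hba-x and Gm23935 among them. Fold calls were made in Python 3.11.15 with pandas 2.3.3 and checked on simulated data. No count test was possible. The library, the 26 gene lists and the tests were chosen with earlier results of these data known. Named genes are the 4 markers, counted list members, the 15 largest folds in each direction with a gene name, and some eligible or low members for contrast. GENCODE M21 gave gene classes for 14786 identifiers, and RefSeq gave sequences and neighbours. Settings were varied one at a time.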

Additional observations from a re-analysis of the deposited data

How the results depend on the processing

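The counts of 344 higher and 111 lower genes moved with the thresholds. A level of at least 2 gave 807 higher and 339 lower, no minimum 807 and 345, and a level of at least 10 gave 113 and 53. At 1.5-fold 518 were higher and 183 lower, and at 4-fold 99 and 41. Genes with a shared lowest value alone gave 149 and 49, and asking for a level of 5 in both other libraries gave 55 lower genes. These settings change the genes tested or the threshold by construction. Without the lateral prominence library the counts were 457 and 169, and without the central-titled library 465 and 170, but 36 and 20 of the 111 lower genes were lost, since fewer libraries could reach the level of 5. Without removal of the shift 398 were higher and 95 lower, and with the shift from genes at a level of 5 or more in both libraries 307 and 123. Chosen after seeing the data, leaving out histone genes gave 328 and 110, protein-coding genes alone gave 264 and 77, and leaving out genes at their lowest value in 1 library alone gave 340 and 103. All 86 counted genes of the lists and of the largest folds kept their direction and call without the shift removed. For higher genes this follows from the rule, since both shifts removed were positive. Their direction against each other library alone is fixed by the rule as well, so it is no check. Lix1, Efnb2 and Pcdh19 lost the call without the lateral prominence library, and Jag1, Sfrp2, Dmrta1 and Cdh4 without the central-titled library. Without the shift 53 of 56 list counts were equal, and the higher counts of the matrix, imprinted and histone lists were 7, 10 and 19. The alternative of a pseudocount on FPKM was not run, since the files hold ratios. No paired analysis was possible because each group has 1 library and no test was made.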

Other observations

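The gene groups in this section were picked after their values were seen, so their counts are descriptions. Among 37 measured imprinted genes, 15 were eligible. Of these 9 were higher in the Nkx2-1-high library than in both others and 0 lower (26.5% and 8.56% over all eligible genes). Of the 9, only Dlk1 was eligible through another library as well (6.42 in the lateral prominence and 6.84 in the central-titled library). The rest of the 9 were eligible only through the Nkx2-1-high library, which favours higher calls. Beside Dlk1 and Rtl1, Nnat, a small membrane protein of developing brain, had a level of 16.5 in the Nkx2-1-high library, against 2.47 in the lateral prominence and 2.57 in the central-titled library (5.64-fold). Blcap, which hosts Nnat in an intron, had a level of 10.4 against 2.38 and 1.11 (4.13-fold), so reads of this pair may not be separable. Peg3, a zinc finger protein, had a level of 12.7 against 3.03 and 1.53 (3.96-fold), and Cdkn1c, an inhibitor of cyclin-dependent kinases, 15.9 against 2.10 and 4.15 (3.37-fold). Plagl1, an imprinted zinc finger factor, stood the other way with a level of 27.5 against 30.7 and 57.7.

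Several genes of secreted signals and of forebrain transcription outside the lists were counted as well. Lrp2, an endocytic receptor that takes up Shh in the forebrain neuroepithelium, had a level of 20.3 in the Nkx2-1-high library, against 1 in the lateral prominence and 4.50 in the central-titled library (3.98-fold). Sulf1 and Sulf2, extracellular heparan sulfatases, had levels of 40.5 and 7.94 in the Nkx2-1-high library, 1 and 1 in the lateral prominence library and 7.37 and 1.94 in the central-titled library (4.83-fold and 3.60-fold). Scube1, a secreted protein, had a level of 20.7 against 6.46 and 2.90 (3.02-fold), and Nfia, a factor of gliogenesis, 17.6 against 1.83 and 2.64 (5.88-fold).

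Of 28 eligible histone entries 16 were higher and 1 lower, beside 26.5% and 8.56% over all eligible genes. Of the 16, only Hist1h2ak and Hist2h3c2 reached a level of 5 in another of the 3 libraries (6.03 and 5.16, central-titled library). The rest of the 16 were eligible only through the Nkx2-1-high library, which favours higher calls. The summed level of all measured histone entries was 340 in the Nkx2-1-high library, 169 in the lateral prominence and 164 in the central-titled library. It reached 1719 in the E9.5 mandibular arch library. Many of these genes are near-identical copies, among which reads may be split. Of 8 eligible mitochondrial tRNA genes 0 were higher and 7 lower, beside the same shares over all eligible genes. The part of RNA handling or library preparation in either was not tested.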
